A study of Mus musculus with 8 samples.

Results

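The 5 NF-κB subunits Nfkb1, Nfkb2, Rela, Relb and Rel, the 4 IκB family genes Nfkbia, Nfkbib, Nfkbie and Nfkbiz, and the deubiquitinase Tnfaip3 were examined in AML12 mouse hepatocytes with and without irisin. They were found as all array probes, controls left out, whose transcript accession belongs to one of these 10 genes, which gave 14 probes for 10 of the 21612 genes named on the array. The genes were listed by name, by a rule that used none of their values, but with earlier results of these data known. AML12 is an established line from the liver of a mouse carrying a TGF-α transgene, so a single line stands for hepatocytes here, and irisin is a peptide cleaved from the membrane protein Fndc5. The 4 control samples and the 4 samples given 0.5 µg/ml irisin for 24 h grew in the same medium with fetal bovine serum, and each was hybridized to its own Agilent one-color array. No label says that the 4 samples of a group came from separate cultures, so the p-values measure the spread between these samples, which may be technical.

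NF-κB is a dimer of Rel family proteins. In resting cells IκB proteins, among them those made from Nfkbia, Nfkbib and Nfkbie, hold the dimers in the cytoplasm until the IκB kinase marks them for destruction, and the freed dimers then bind κB sites in the nucleus. Several of the genes that NF-κB turns on are its own parts and brakes, among them Nfkbia, Tnfaip3, Nfkb2, Relb and Rel, and in the liver the pathway drives acute-phase and chemokine genes.

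The promoters of members are shown because κB sites lie in the members' own genes. RefSeq promoters of GRCm38.p6, from 250 bases before to 50 after a transcript start, were found for 7 of the 10 members, and those of Nfkb1, Relb and Nfkbiz are not shown. Each was searched on both strands for GGGNNNNNCC, a loose κB pattern that 50.8% of 32851 promoters of 300 bases hold. Capitals mark the bases of a match, and a stretch can match on both strands or at overlapping positions. Nfkbia stands first as the classical feedback inhibitor, Tnfaip3 as the other feedback brake, and Rel as the member whose signal separated the groups.
Nfkbia, chr12:55492598-55492897, minus strand: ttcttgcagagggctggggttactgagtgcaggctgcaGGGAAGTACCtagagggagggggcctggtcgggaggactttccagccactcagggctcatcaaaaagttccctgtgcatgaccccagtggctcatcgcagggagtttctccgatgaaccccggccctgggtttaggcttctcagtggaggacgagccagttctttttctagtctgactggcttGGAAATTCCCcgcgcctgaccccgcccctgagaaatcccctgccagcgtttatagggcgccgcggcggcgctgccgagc
Tnfaip3, chr10:19015361-19015660, minus strand: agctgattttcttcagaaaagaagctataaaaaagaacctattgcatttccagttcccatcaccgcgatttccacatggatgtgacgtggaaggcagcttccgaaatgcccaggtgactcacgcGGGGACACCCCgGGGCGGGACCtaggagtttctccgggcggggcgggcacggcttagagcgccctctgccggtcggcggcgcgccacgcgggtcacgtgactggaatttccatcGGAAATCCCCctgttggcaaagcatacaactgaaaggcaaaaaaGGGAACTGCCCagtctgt
Rel, chr11:23770920-23771219, minus strand: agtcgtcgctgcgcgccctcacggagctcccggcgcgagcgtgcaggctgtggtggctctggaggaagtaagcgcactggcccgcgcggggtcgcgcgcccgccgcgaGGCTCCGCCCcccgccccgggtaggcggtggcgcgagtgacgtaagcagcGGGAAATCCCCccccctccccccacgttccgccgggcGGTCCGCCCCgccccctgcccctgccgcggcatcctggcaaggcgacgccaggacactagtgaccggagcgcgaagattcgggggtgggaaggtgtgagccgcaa
The Nfkbia promoter held 2 matches, with GGGAATTTCC on the minus strand at position -29 from the start. The Tnfaip3 promoter held 8 matches counted over both strands, among them GGGGATTTCC at position -12, and the promoter of a second Tnfaip3 start held 2. The promoters of 3 Nfkb2 starts held 9, 6 and 5. The Rel promoter held 5 matches, among them GGGAAATCCC at position -92, and those of Rela and Nfkbie held 4 and 3. No match was found in the Nfkbib promoter. Such matches describe letters and do not show that NF-κB is bound.

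On the array, levels are given as log2 of the background-subtracted signal minus the 75th percentile of the same array, and changes as irisin minus control on that scale. That percentile ran from 372 to 534 without irisin and from 682 to 850 with it, with 59.5% to 64.1% of all probes well above background. The control arrays shared a slide and a scan and the irisin arrays another slide and scan, so that treatment, slide and scan cannot be told apart. Pairs of irisin arrays with replicate 2 differed most, with a spread of log2 differences of 0.292 to 0.405 against 0.249 to 0.273 for the other irisin pairs. All 14 hepatocyte markers, Alb, Ttr and Hnf4a among them, passed the background test on all 8 arrays. Of 12 leukocyte markers, 5 passed it on all 8, namely Cd68, Csf1r, Itgam, Marco and Cd3e, and the macrophage genes Lyz2 and Fcgr1 passed it on none. The summed relative signal of these 12 was 2.21 to 2.82 in controls and 1.75 to 2.02 with irisin. That of the hepatocyte markers was 464 to 515 and 377 to 443. For 7 cholangiocyte markers it was 55.7 to 62.2 and 58.3 to 61.2, and for 8 endothelial markers 0.740 to 0.834 and 0.443 to 0.615. For 10 stellate cell and fibroblast markers it was 0.125 to 0.173 and 0.083 to 0.101. With this scaling the median change was -0.51 in the dimmest 10% of tested probes and -0.20 in the brightest. The part of these cell types in the results was not tested. In a bulk extract, fewer cells with a transcript and less of it per cell cannot be told apart.

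All 14 member probes passed the background test on every array, and none passed the 1.5-fold change with a limma p under 0.05 after Benjamini-Hochberg adjustment over 24093 tested probes, of which 12.4% passed. The share that passed depended on signal, and was 46.1% in the dimmest 10% of probes, where Rel lay. In the 10% classes of signal that held the other member probes it was 0.249% to 10.2%. The shares of all tested probes given here are not matched for signal. Of the 14, 2 had an unadjusted limma p under 0.05, against 34.3% of all tested probes, and the methods' test on the same values called 0. The adjusted p alone was under 0.05 for 1 member probe, that of Rel, against 24.5% of all tested probes. The 2 groups did not overlap for the same probe only, against 27.2% of all tested probes. For 12 of the 14 probes the 95% interval of the change lay inside 1.5-fold in both directions, the exceptions being Rel and Nfkbiz. The median change of the 10 genes, each by its probe with the highest mean signal, was -0.056, beside -0.064 for 14312 tested genes.

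**Figure D1:**
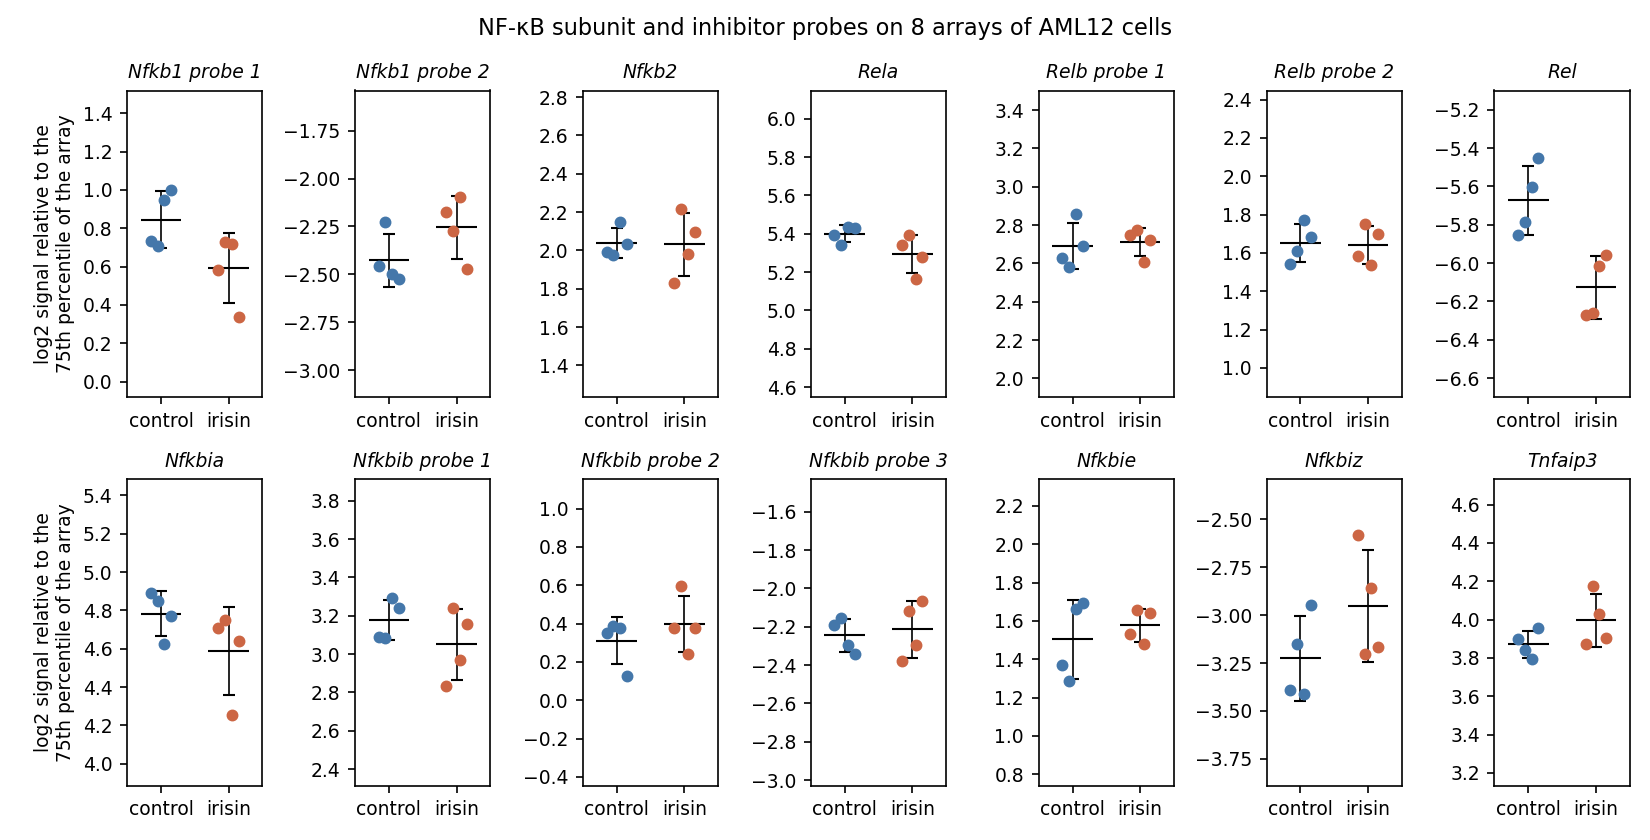
Log2 relative signal, scaled to each array's 75th percentile (y axis, each panel 1.6 log2 units high and centred on its own probe) for the 14 probes of the 10 members. Dots are the 4 control and 4 irisin arrays, and bars are the mean ± SD. The groups overlap in every panel but that of Rel, where all irisin arrays lie below all controls with this scaling, a difference near 0 with quantile normalization or cyclic loess.

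Rela encodes p65, the subunit that carries most of the activating function of the common dimer. Its log2 relative signal was 5.40, 5.34, 5.44 and 5.43 in controls 1 to 4 and 5.34, 5.39, 5.16 and 5.28 with irisin. Irisin replicates 3 and 4 were below every control and the other two lay within the range of the controls. The change was -0.11 (SE 0.080, 95% interval -0.28 to 0.07, limma adjusted p = 0.405, exact two-sided permutation p = 0.0857), and it was above 0 with quantile normalization (0.11) and cyclic loess (0.064). Rela lay in the brightest 10% of the tested probes, whose median change was -0.20.

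Nfkb1 encodes p105, which is cut to p50, the DNA-binding partner of p65. Its brighter probe gave 0.73, 0.71, 0.95 and 1.00 in the controls and 0.58, 0.73, 0.72 and 0.33 with irisin. Irisin replicate 4 was the lowest, replicate 1 was also below every control, and the other irisin arrays lay near the lower pair of controls. The change was -0.25 (SE 0.11, 95% interval -0.51 to -0.0026, limma adjusted p = 0.142, exact permutation p = 0.114). Its dimmer probe, for the same transcript, ran from -2.53 to -2.23 in controls and from -2.47 to -2.09 with irisin. The change of that probe was 0.17 (SE 0.11, limma adjusted p = 0.294), opposite in sign to the brighter one. The difference between both probes on the same array, which no scaling factor can move, was 2.93 to 3.52 in controls and 2.76 to 3.01 with irisin, so that the ranges overlapped.

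Nfkb2 encodes p100, the precursor of p52 in the non-canonical branch. Its values were 1.99, 1.98, 2.15 and 2.03 in controls and 1.83, 2.22, 1.98 and 2.09 with irisin. The irisin arrays spread on both sides of the controls, with replicate 1 lowest and replicate 2 highest of all 8. The change was -0.0063 (SE 0.098, 95% interval -0.22 to 0.21, limma adjusted p = 0.976).

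Relb encodes the usual partner of p52. Its brighter probe lay between 2.58 and 2.86 in controls and between 2.61 and 2.78 with irisin, and the change was 0.024 (SE 0.087, 95% interval -0.17 to 0.22, limma adjusted p = 0.887). The other Relb probe, matched to a second transcript, changed by -0.011 (SE 0.087, limma adjusted p = 0.949). All irisin values of both probes but the lowest of the second one lay within the range of the controls.

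Rel encodes c-Rel, best known from lymphocytes. Its signal before scaling was only 6.43 to 13.7 units, and 9.05% of the tested probes were dimmer. Log2 relative values were -5.85, -5.78, -5.60 and -5.45 in controls and -6.27, -6.26, -6.02 and -5.96 with irisin. Every irisin array was below every control. The change was -0.45, or 1.37-fold lower (SE 0.12, 95% interval -0.71 to -0.20, limma adjusted p = 0.0147), and the exact permutation p was 0.0286, the smallest that 4 arrays against 4 allow. Probes in the dimmest 10%, where Rel lay, had a median change of -0.51, and 46.1% of them passed both thresholds, so Rel differed by 0.060 from that median. With quantile normalization the change of Rel was 0.011 and with cyclic loess 0.014, and it turned to 0.12 with scaling to the spike-in probes and 0.28 with no scaling. With background estimated from negative control spots it was -0.60 and passed both thresholds. That setting adds 50 units to every spot, more than the whole signal of Rel, so it cannot decide the change of so dim a probe.

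**Figure D2:**
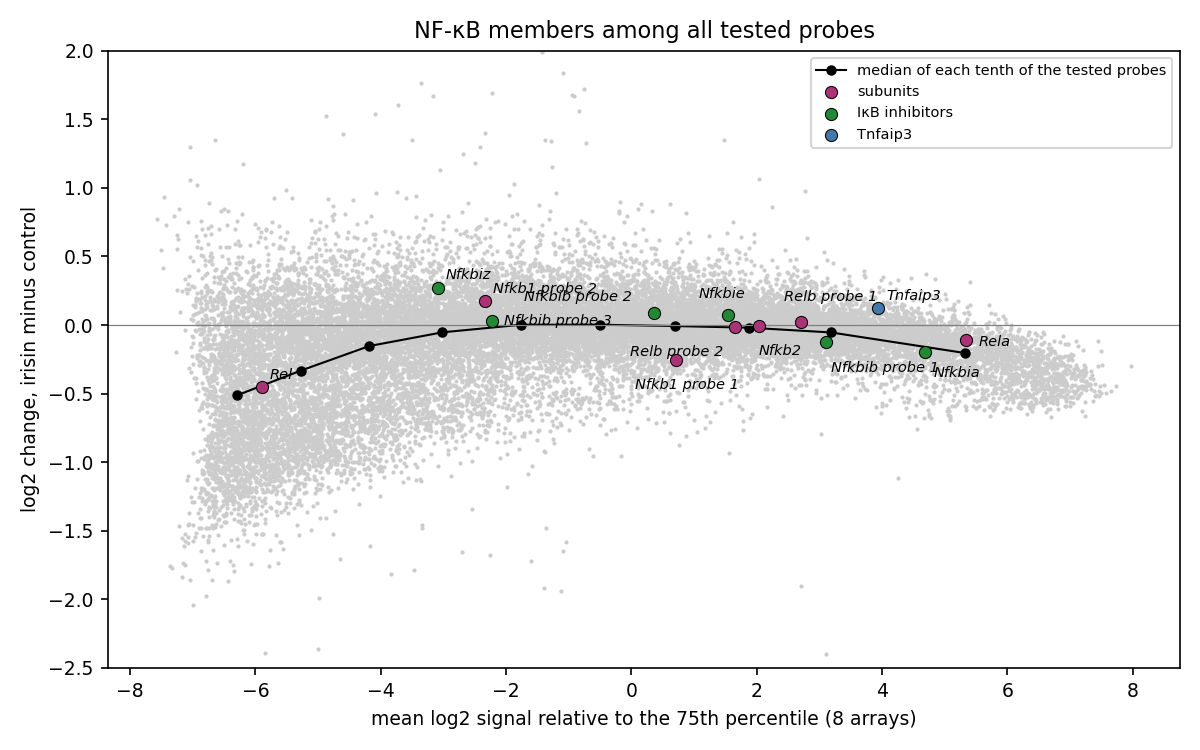
Log2 change (irisin minus control, y axis) against mean log2 relative signal over 8 arrays (x axis) for the 24093 tested probes in grey, with the median of each 10% of probes, ordered by signal, as a black line and the member probes in color. The color named IκB inhibitors stands for the IκB family and includes Nfkbiz, which works with NF-κB. Rel lies on the black line at its dim end, where the median change is -0.51, and Rela and Nfkbia lie near it at the bright end, where it is -0.20; the line is drawn for scaling to the 75th percentile, and cyclic loess flattens it by construction.

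Nfkbia encodes IκBα, the inhibitor that NF-κB itself induces fastest. Its values were 4.89, 4.85, 4.62 and 4.77 in controls and 4.71, 4.75, 4.25 and 4.64 with irisin. Irisin replicate 3 was the lowest, and the other irisin arrays lay within the range of the controls. The change was -0.19 (SE 0.12, 95% interval -0.46 to 0.07, limma adjusted p = 0.297, exact permutation p = 0.143), and -0.082 without irisin replicate 3. The median change of the brightest 10% of probes, where Nfkbia lay, was -0.20, which differs from Nfkbia by 0.0097.

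Nfkbib encodes IκBβ and was measured by 3 probes. The brightest lay between 3.08 and 3.29 in controls and between 2.83 and 3.24 with irisin, with a change of -0.13 (SE 0.11, 95% interval -0.36 to 0.11, limma adjusted p = 0.459). The others changed by 0.086 (SE 0.10) and 0.031 (SE 0.095), with limma adjusted p of 0.614 and 0.862. Differences between these probes on the same array overlapped between the groups for all 3 pairs.

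Nfkbie encodes IκBε. Its values were 1.37, 1.29, 1.66 and 1.69 in controls and 1.53, 1.66, 1.48 and 1.64 with irisin. The controls fell into a low and a high pair, and all irisin arrays lay between the lowest and the highest control. The change was 0.072 (SE 0.11, 95% interval -0.17 to 0.32, limma adjusted p = 0.708).

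Nfkbiz encodes IκBζ, a nuclear member of the family that works with NF-κB on a subset of its targets. Its values were -3.39, -3.15, -3.41 and -2.95 in controls and -2.58, -3.20, -2.86 and -3.17 with irisin. Irisin replicates 1 and 3 were above every control and replicates 2 and 4 were among them. The change was 0.27 (SE 0.16, 95% interval -0.07 to 0.62, limma adjusted p = 0.256, exact permutation p = 0.229), the highest of the 14 probes and the one with the widest interval, and it was -0.099 with background from negative control spots.

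Tnfaip3 encodes A20, an enzyme that edits ubiquitin chains and shuts the pathway down. Its values were 3.90, 3.84, 3.79 and 3.96 in controls and 3.87, 4.17, 4.03 and 3.91 with irisin. Irisin replicates 2 and 3 were above every control and the others lay within them. The change was 0.12 (SE 0.090, 95% interval -0.08 to 0.32, limma adjusted p = 0.386, exact permutation p = 0.171).

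**Figure D3:**
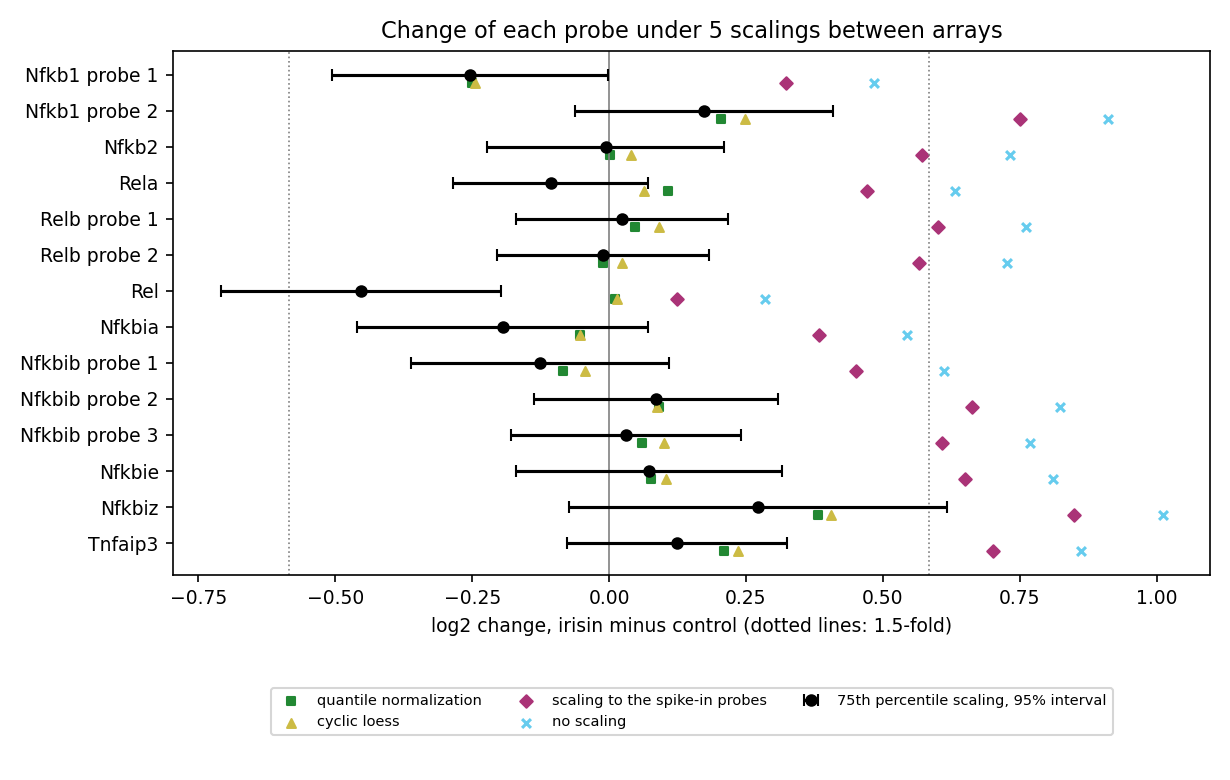
Log2 change (irisin minus control, x axis) of the 14 member probes, with black dots and bars for scaling to the 75th percentile and its 95% interval, and colored marks for 4 other treatments of the arrays. Dotted lines mark 1.5-fold. Black dots cluster around 0, whereas the spike-in and unscaled marks lie above 0 for every probe, the brighter Nfkb1 probe, Rela, Rel and Nfkbia included.

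The scaling between arrays set the sign of most members. Scaling to the spike-in probes gave a member median of 0.52 beside 0.51 for all tested genes. There 7 of the 14 member probes passed both thresholds upward, beside 7872 of all 24093 tested probes. No scaling gave 0.68 beside 0.67, with 11 member probes up beside 14920 of the 24093. The difference between the member median and the median of all genes was 0.0079 with the 75th percentile, and it lay between -0.0094 and 0.11 over all settings tried. Relative to all genes, 5 of the 10 members were above the median and 5 below it. Of all called probes 5.76% were up with the 75th percentile (172 up and 2816 down), 39.6% with quantile normalization, 43.0% with cyclic loess, 95.6% with the spike-in probes and 98.9% with no scaling.

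A ratio of 2 members on 1 array is not moved by any scaling factor, so each member was also set against Rela. It still carries a trend of the changes with signal. The median change was -0.20 in the brightest 10% of probes, where Rela lay, and -0.054 in the next 10%, where Tnfaip3 lay. Of the 9 ratios, 1 did not overlap between the groups, that of Tnfaip3, against 23.4% of all tested genes set against Rela. Its log2 ratio to Rela was -1.497, -1.501, -1.643 and -1.475 in controls and -1.469, -1.219, -1.134 and -1.373 with irisin. Every irisin array was above every control, by less than 0.01 for the nearest pair, and the means differed by 0.23. Nfkbiz against Rela differed by 0.38, with both its highest values on irisin arrays and an overlap in the rest, and Rel against Rela by -0.35, also with overlap. The other ratios differed by -0.15 for Nfkb1, 0.10 for Nfkb2, 0.13 for Relb, -0.088 for Nfkbia, -0.020 for Nfkbib and 0.18 for Nfkbie. With each array left out in turn, 1 to 3 ratios did not overlap, with 2 without control replicate 1, control replicate 3 or irisin replicate 3 and 3 without irisin replicate 1. With Nfkb1 as the reference Tnfaip3 (0.38) and Nfkbie (0.33) did not overlap, with quantile normalization Nfkb1 against Rela (-0.36) did not, and with background from negative controls Rel against Rela (-0.59) did not. Tnfaip3 against Rela overlapped in the last 2 settings, with differences of 0.10 and 0.12. The share of all tested genes is not given for these settings or with an array left out. Their counts can therefore not be judged against it, and leaving out an array can only take an overlap away.

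**Figure D4:**
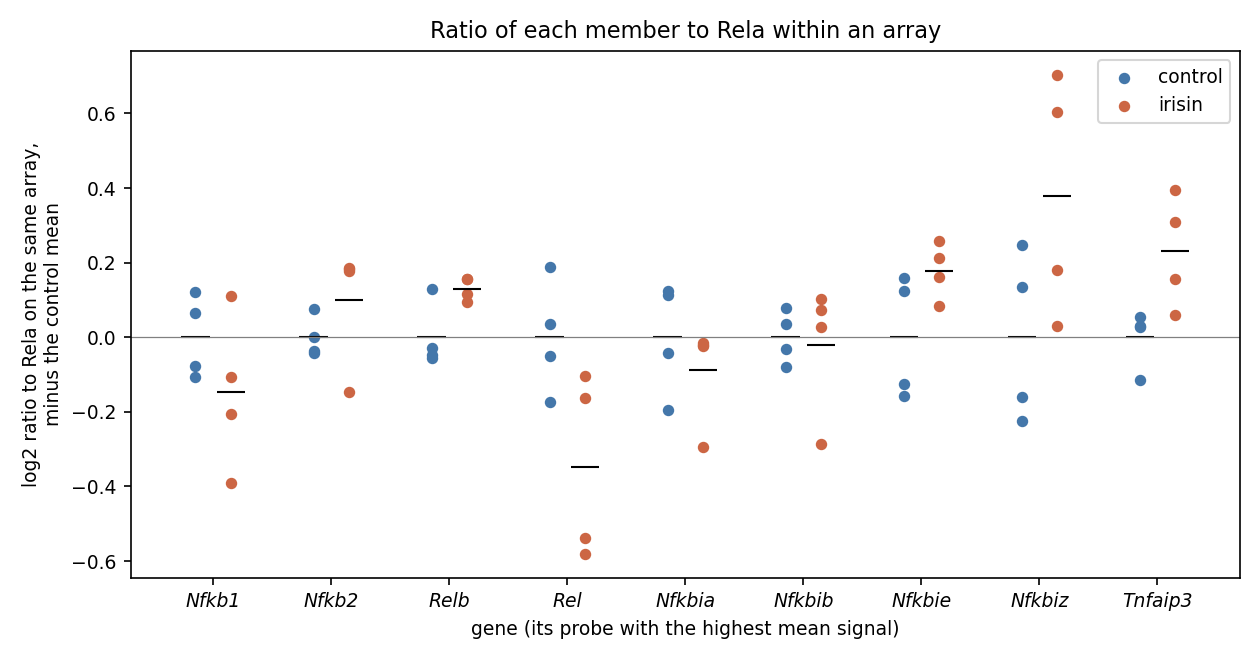
Log2 ratio of each member to Rela on the same array, minus the mean of the control arrays (y axis), with 1 dot per array and a bar for each group mean (n = 4). Only for Tnfaip3 are all irisin dots above all control dots, which with quantile normalization they are not; for Nfkbiz both groups spread widely.

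Genes whose signal followed a member over the 8 arrays were looked up as a description. For Rela the highest Pearson correlations, over 8 arrays on 2 slides that each hold 1 group, were with Slc35b1 (0.977), Shank2 (0.971) and Tmem229b (0.969). For Nfkbia they were with Snx18 (0.986), Srcap (0.975) and Yaf2 (0.974), out of 14302 genes compared.

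Upstream of the members, 14 IκB kinase complex and upstream kinase genes had a median change of 0.085, and 0 passed both thresholds in limma, with 5 up and 0 down at an unadjusted p under 0.05, where 5.94% of all tested genes were up and 23.6% down. The largest were Ripk2 (0.52, SE 0.16, limma adjusted p = 0.0429), the kinase below NOD receptors, and Tbk1 (0.44, SE 0.13, limma adjusted p = 0.0336), an IKK-related kinase. Both overlapped between the groups. Ripk2 was -0.25 with background from negative control spots, where the 50 units added to every spot exceed its signal of 10.2 to 37.8 units. Ripk2 passed both thresholds with quantile normalization (0.85, limma adjusted p = 0.0107), with cyclic loess (0.89, limma adjusted p = 0.0123) and without irisin replicate 2 (0.64), and 2 genes of this list were called up in each of the first 2 settings. Among 19 adaptors and ubiquitin ligases, with a median of 0.033, 0 passed in limma and 4 up and 2 down had an unadjusted p under 0.05, against the same 5.94% and 23.6%. Birc3, the ubiquitin ligase cIAP2, changed by 0.36 (SE 0.090, limma adjusted p = 0.0140) with no overlap. For Ube2n, the enzyme that builds K63 chains, the 2 probes changed by 0.26 and -0.17 (limma adjusted p = 0.0656 and 0.382).

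Of 22 receptors and ligands, 17 could be tested and 1 gene was called up and 1 down, beside 0.531% of all tested genes called up and 10.2% called down. Il1rap, the coreceptor for IL-1, was -5.03, -4.99, -4.90 and -5.20 in controls and -4.46, -4.81, -3.97 and -4.51 with irisin. All irisin arrays were above all controls, replicate 3 by far the most. The change was 0.59 (SE 0.16, limma adjusted p = 0.0177), just past the 1.5-fold threshold. It fell short of that threshold without control replicate 4 (0.54), without irisin replicate 3 (0.44) and with scaling to the median of detected probes (0.58). It missed the adjusted p in the methods' test. With background from negative controls, and the 50 units added there to a dim probe, it was -0.25. Il1r1, the IL-1 receptor itself, changed by 0.51 (SE 0.093, limma adjusted p = 0.00238), under 1.5-fold, with no overlap. Tnfrsf11a, the receptor RANK, changed by -0.62 (SE 0.11, limma adjusted p = 0.00313), with irisin replicate 4 left out because its spot carried an outlier mark. With that spot kept the change was -0.19 (limma adjusted p = 0.749), without control replicate 4 it was -0.56 and without irisin replicate 1 it was -0.56, both under 1.5-fold. Tnfsf12, the ligand TWEAK, changed by -0.37 and -0.27 in its 2 probes (limma adjusted p = 0.0133 and 0.0762).

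Among 24 other IκB proteins and negative regulators, with a median of -0.048, 0 were called up, and 1 was called down, with 1 up and 2 down at an unadjusted limma p under 0.05, against 5.94% and 23.6% of all genes. That was Tnip3, an A20-binding protein, which changed by -0.64 (SE 0.14, limma adjusted p = 0.00726). Its probe was as dim as that of Rel, with 8.72% of tested probes dimmer, the change was -0.49 without control replicate 2, and with quantile normalization it was -0.17 (limma adjusted p = 0.548). Nfkbid, a nuclear IκB protein, changed by -0.37 (SE 0.083, limma adjusted p = 0.00741), and Nkiras1, which binds IκB proteins, by 0.34 (SE 0.11, limma adjusted p = 0.0551).

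Downstream, 30 of 35 NF-κB target genes could be tested, with a median change of 0.066, of which 4 were called up and 1 down, against 0.531% and 10.2% of all tested genes. This list, like the others, was written with earlier results of these data known. Its counts are therefore a description and no test of enrichment. Of these 30, 17 were above 0 and 13 below, against 36.0% of all tested genes above 0. The genes called up were Lcn2 (1.35, SE 0.15, limma adjusted p = 0.000169), Saa3 (1.33, SE 0.16, limma adjusted p = 0.000225), Cxcl5 (1.06, SE 0.12, limma adjusted p = 0.000176) and Cxcl2 (0.79, SE 0.15, limma adjusted p = 0.00264). Lcn2 and Saa3 encode acute-phase proteins and Cxcl5 and Cxcl2 neutrophil chemokines. Cxcl2, a dim probe with 25.4% of tested probes dimmer, was -4.62, -4.46, -4.58 and -4.52 in controls and -3.31, -4.03, -3.67 and -4.01 with irisin. All irisin arrays were above all controls. The change was -0.11 with background from negative controls, which adds 50 units to every spot. The signal of Cxcl2 was 15.1 to 80.4 units, so that setting cannot decide its sign. Nos2, the inducible nitric oxide synthase, was called down at -0.70 (SE 0.17, limma adjusted p = 0.00969), which was 0.035 with no scaling, -0.13 with the spike-in probes (limma adjusted p = 0.625) and -0.58 with cyclic loess, and the methods' test did not call it (adjusted p = 0.0544). Saa1 and Csf2 changed by 0.57 and 0.38 (limma adjusted p = 0.00749 and 0.0120), below 1.5-fold, and Csf2 was -0.18 with background from negative controls. The Cxcl2 promoter is shown as that of a called target with 3 matches, GGGAATTTCC at position -97 and on the other strand at -96, and GGGCTTTTCC at position -78.
Cxcl2, chr5:90903649-90903948, plus strand: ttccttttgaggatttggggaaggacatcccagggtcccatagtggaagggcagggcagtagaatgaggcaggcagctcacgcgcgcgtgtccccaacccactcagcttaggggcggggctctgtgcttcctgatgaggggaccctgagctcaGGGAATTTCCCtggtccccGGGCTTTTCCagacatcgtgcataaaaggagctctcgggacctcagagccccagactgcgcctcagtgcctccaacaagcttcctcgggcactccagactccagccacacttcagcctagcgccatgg
In contrast, the Saa3 promoter of the same length held no match and that of Lcn2 held 1. Of the called genes in the other lists, the promoter of Il1rap, called up, held 9. Those of Tnip3 and Tnfrsf11a, called down, held 3 each. GC content was 76.7% for Tnfrsf11a, 72.0% for Il1rap, 60.7% for Cxcl2, 56.3% for Lcn2, 46.0% for Saa3 and 42.3% for Tnip3. Matches were counted over both strands, and no background is given for their number, so these counts cannot be ranked between genes. Over the 5 lists together, 5 of 102 tested genes were called up and 3 down, and their median change was 0.011.

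**Figure D5:**
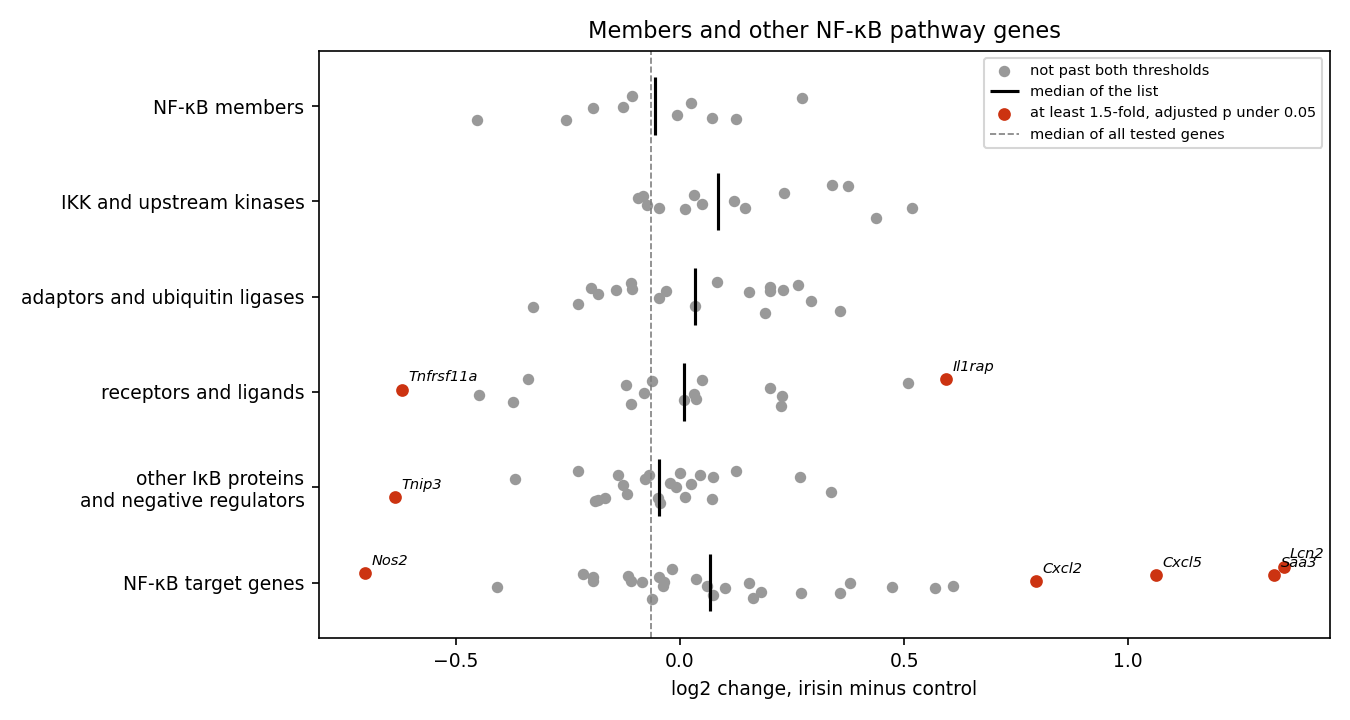
Log2 change (irisin minus control, x axis) of each tested gene of the members and of 5 other NF-κB pathway lists (rows, with random vertical spread), red where past both thresholds. Vertical bars are list medians and the dashed line is the median of all tested genes, -0.064. All red dots lie outside the member row. The red dots to the left, Tnfrsf11a, Tnip3 and Nos2, were above 0 with no scaling between arrays. Il1rap and Cxcl2 were below 0 with background from negative control spots, a setting that adds 50 units to every spot.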

How the data were processed

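Total RNA from 4 control and 4 irisin-treated AML12 samples was labeled with Cy3 and hybridized by the authors to Agilent one-color arrays. The authors deposited signal intensity on a linear scale, as given by Agilent Feature Extraction 12.0.3.1, background-subtracted and corrected for trends across the slide, with no scaling between arrays; the deposited value table of signal intensity departed from the mean of each probe's spots by at most 0.0005%. Samples were grouped by their labels. From 43020 spots per array that are not controls, spots with outlier marks were left out (at most 0.463% of an array), and the remaining spots were averaged to 39429 probes. The log2 signal had the 75th percentile of its array subtracted, with no pseudocount. Accessions of 28663 probes (72.7%) matched a gene in the RefSeq table of GRCm38.p6.

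Probes that Feature Extraction marked as well above background on every array of a group, in at least 1 of the 2 groups, were tested with limma 3.58.1 (lmFit, eBayes) in R 4.3.3 with Benjamini-Hochberg adjustment, and called at 1.5-fold and adjusted p under 0.05. Exact two-sided permutation tests used all 70 assignments of the arrays. The number of arrays limits the precision. Ratios to Rela and list medians are descriptions. A gene with several tested probes was represented by its brightest one on average. All members and their probes are named, with from each list the called genes (up to 5, by lowest p) and the 2 lowest p among the rest, and 3 genes most like Rela and Nfkbia. Members, lists and alternatives were chosen with earlier results of these data known, and the lists were written from general knowledge. Normexp with negative controls was a later addition, made once the values had been seen. It adds an offset of 50 units to every spot before scaling, which is large against the signal of dim probes. Simulated arrays served to check the fit. Files were read with pandas 2.3.3 in Python 3.11.15, and plots were drawn with matplotlib 3.10.9. The paper's mouse liver experiments were not analysed here. A stricter κB motif and a protein comparison, both planned, are not reported here.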

Additional observations from a re-analysis of the deposited data

Results flagged for a closer look

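Among 81 groups of 4 arrays that were checked, 5 held an array far from the other 3, where chance gives about 1 in 20. In the second Nfkbib probe, control replicate 4 was 0.13 and the other controls 0.35 to 0.39. Of the ratios to Rela, Nfkb2 was -3.51 in irisin replicate 1 against -3.18 in each of the other irisin arrays, and Nfkbia was -0.91 in irisin replicate 3 against -0.64 to -0.63. Control replicate 3 was apart from the other controls in Relb against Rela (-2.58, others -2.77 to -2.74) and in Tnfaip3 against Rela (-1.64, others -1.501 to -1.475).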

How the results depend on the processing

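No member probe was called with any array left out (0 to 0 in both directions), with the replicate number as a block, with any filter on dim probes, with the deposited value table, with quantile normalization or with cyclic loess. Member probes called up numbered 7 with the spike-in probes and 11 with no scaling, and 1 (Rel) was called down with background from negative controls and by the adjusted p alone. Genes of the 5 other lists called up numbered 5, against 3 with background from negative controls, 9 with quantile normalization, 11 with cyclic loess, 53 with the spike-in probes, 83 with no scaling, 12 by the adjusted p alone and 3 at 2-fold. Those called down numbered 3, against 1 with quantile normalization, 0 with cyclic loess, the spike-in probes, no scaling and 2-fold, and 8 by the adjusted p alone. Of all 24093 tested probes, 172 were called up, against 55 with background from negative controls, 670 with quantile normalization and 699 with cyclic loess. With the spike-in probes 7872 were up and with no scaling 14920. The counts down were 2816, against 3827, 1021, 926, 361 and 162 in the same order. By the adjusted p alone, 379 of 14312 tested genes were up and 2564 down. At 2-fold no such count is given. With each array left out, 5 to 7 list genes were up and 2 to 3 down, beside 102 to 335 and 2632 to 3052 of all tested probes. The member median was 0.052 with cyclic loess, 0.52 with the spike-in probes and 0.68 with no scaling, and -0.10 to -0.021 with each array left out. With Nfkb1 as reference 2 ratios did not overlap, and 1 to 3 against Rela with each array left out, with no share of all genes given for either.

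Signs turned as follows. With the spike-in probes, then with no scaling, the changes were 0.32 and 0.48 for the brighter Nfkb1 probe, 0.57 and 0.73 for Nfkb2, 0.47 and 0.63 for Rela, 0.57 and 0.73 for the second Relb probe, 0.12 and 0.28 for Rel, 0.38 and 0.54 for Nfkbia, 0.45 and 0.61 for the brightest Nfkbib probe, 0.20 and 0.36 for Tnfsf12, and 0.21 and 0.37 for Nfkbid. With no scaling Tnfrsf11a was 0.078, Tnip3 0.10 and Nos2 0.035. With quantile normalization Nfkb2 was 0.00091, Rela 0.11 and Rel 0.011. With cyclic loess Nfkb2 was 0.040, Rela 0.064, the second Relb probe 0.023 and Rel 0.014. With background from negative controls the dimmer Nfkb1 probe was -0.10, Nfkb2 0.00072, the second Relb probe 0.053, the brightest Nfkbib probe 0.028, the dimmest -0.085, Nfkbiz -0.099, Ripk2 -0.25, Il1rap -0.25, Cxcl2 -0.11 and Csf2 -0.18. That setting adds 50 units to every spot, so it cannot decide the sign for dim probes. The causes were not tested. With each array left out Nfkb2 ran from -0.068 to 0.060, the Relb probes from -0.012 to 0.079 and -0.048 to 0.029, the dimmest Nfkbib probe from -0.018 to 0.086 and Nfkbie from -0.00063 to 0.14.

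The replicate numbers did not pair the samples: the deviations of same-numbered samples correlated at 0.109, -0.348, -0.125 and 0.165, and 2 of 4 control samples matched best with their own number. The replicate block gave 173 probes up and 2832 down of all tested, against 172 and 2816. Of the list genes, it left 5 up and 2 down, Tnfrsf11a changing by -0.56. The planned normexp correction without negative controls gave a 5th percentile of corrected signal of 358.7 and 453.8 on irisin replicates 2 and 4. Elsewhere it was 54.0 to 59.0, and this correction was left out of the tests. Signal over background limits Rel and Tnip3, and also Ripk2, Il1rap and Cxcl2, whose lowest signals were 10.2, 11.4 and 15.1 units.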
